A study of Mus musculus with 12 samples.

Results

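The TWEAK receptor Tnfrsf12a and 9 other members of the tumor necrosis factor (TNF) ligand and receptor superfamilies were followed in mouse kidneys with and without ischemia. They were chosen by gene symbol, with earlier results of these arrays known, and each was read from the probe set annotated to that symbol alone. Such a probe set existed for 9 of the 10 members, among 22180 genes with a probe set of 1 symbol. Each of the 9 had exactly 1 of this kind, so no choice between such probe sets was needed. Another probe set naming Tnfrsf18 was shared with Gm16008 and was not used. Tnfsf12, which encodes TWEAK itself, shared its only annotated probe set with Tnfsf13 and Tnfsfm13, and no value is given for it. Because results of these arrays were known when the members were chosen, their changes after ischemia are a description of these arrays and not independent evidence.

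The 12 kidneys came from female mice of 8 to 12 weeks, 3 kidneys in each of 4 groups, with 1 GeneChip Mouse Gene 2.0 ST array per kidney. Whether ischemic and unischemic kidneys came from separate mice is not established here. The groups were ischemic kidneys labelled HDAC2-/- (HDAC2fl/fl-ERTcre), ischemic WT kidneys (wild type ERT2cre), unischemic kidneys labelled HDAC2-/- and unischemic WT kidneys. HDAC2 is a nuclear enzyme that removes acetyl groups from histones. Every mouse, WT included, received tamoxifen at 100 mg/kg on 5 days followed by 7 days of recovery, which activates the Cre recombinase. Ischemic mice had the left renal pedicle clamped for 28 min and the right kidney removed, and the left kidney was taken at 4 h. No sham operation is described, so surgery and ischemia cannot be told apart. The labels give renal cortex as the tissue and the study's methods give whole kidney.

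Values are log2 signals after robust multiarray average (RMA) normalization by the authors, and array medians lay between 5.62 and 5.76. Arrays of 1 group correlated at 0.983 to 0.994 over all probe sets. A level on this scale depends on the probes, so levels are compared between kidneys and never between genes. The 5 proximal tubule markers read 10.75 to 14.07 on every array. The Hdac2 probe set read 7.95 to 8.32 in ischemic kidneys labelled HDAC2-/-, 7.93 to 8.17 in ischemic WT kidneys, 7.68 to 8.45 in unischemic kidneys labelled HDAC2-/- and 7.85 to 8.01 in unischemic WT kidneys. It was therefore not lower under the HDAC2-/- label, with differences of 0.12 at 4 h and 0.07 without ischemia (adjusted p = 0.927 and 1.0 from limma). The sources used here do not place its probes inside or outside the deleted part of the gene, so this reading does not settle whether the gene was deleted, and the genotype is given here as labelled.

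TNF superfamily ligands are mostly trimeric membrane proteins, some of which are released by proteases, and they bind receptors with cysteine-rich repeats on the same or neighboring cells. Some receptors carry a death domain in the cytoplasm and can recruit FADD and a caspase, and others bind TRAF adaptor proteins that activate NF-kappaB and MAP kinases. Tnfrsf12a, also called Fn14, is a small receptor of the TRAF-binding kind, best known for its induction in injured tissue, tubular epithelium included.

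The promoters of 4 members are shown because 3 of them passed the test after ischemia under both genotype labels and Tnf, the founding ligand, did not pass under either. RefSeq promoter sequences on GRCm38.p6 were found for 7 of the 10 members, each running from 250 bases before the annotated start to 50 bases after it. The windows are chr17:23677400-23677699 on the minus strand for Tnfrsf12a, chr1:161494407-161494706 on the plus strand for Tnfsf18, chr19:34290409-34290708 on the plus strand for Fas and chr17:35201958-35202257 on the minus strand for Tnf. Capitals mark matches to the motifs searched.
Tnfrsf12a: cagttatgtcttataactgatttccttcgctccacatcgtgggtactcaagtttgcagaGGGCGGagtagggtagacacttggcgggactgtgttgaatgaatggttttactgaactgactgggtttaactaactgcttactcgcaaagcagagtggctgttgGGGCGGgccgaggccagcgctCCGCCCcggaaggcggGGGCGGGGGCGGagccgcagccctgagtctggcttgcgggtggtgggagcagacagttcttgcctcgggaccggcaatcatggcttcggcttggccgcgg
Tnfsf18: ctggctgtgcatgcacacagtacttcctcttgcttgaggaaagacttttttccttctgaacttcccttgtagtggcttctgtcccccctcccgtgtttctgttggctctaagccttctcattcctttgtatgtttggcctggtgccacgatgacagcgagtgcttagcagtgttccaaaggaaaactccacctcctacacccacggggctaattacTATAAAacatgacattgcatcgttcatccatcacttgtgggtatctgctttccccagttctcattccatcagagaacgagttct
Fas: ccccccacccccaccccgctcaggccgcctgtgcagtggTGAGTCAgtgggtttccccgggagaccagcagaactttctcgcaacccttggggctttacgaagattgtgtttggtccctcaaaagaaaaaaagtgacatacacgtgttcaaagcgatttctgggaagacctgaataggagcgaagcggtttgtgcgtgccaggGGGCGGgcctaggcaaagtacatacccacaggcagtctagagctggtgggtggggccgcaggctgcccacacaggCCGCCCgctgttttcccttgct
Tnf: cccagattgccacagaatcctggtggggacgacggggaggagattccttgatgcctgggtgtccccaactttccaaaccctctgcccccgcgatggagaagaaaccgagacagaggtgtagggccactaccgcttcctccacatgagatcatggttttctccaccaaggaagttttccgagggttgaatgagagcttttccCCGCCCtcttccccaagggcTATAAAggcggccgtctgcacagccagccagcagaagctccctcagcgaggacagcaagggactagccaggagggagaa

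The motifs searched were the AP-1 site TGANTCA, the cAMP response element TGACGTCA, the GC box GGGCGG and the NF-kappaB consensus on both strands, and the TATA box TATAAA on the forward strand. Tnfrsf12a held 5 GC boxes, which begin 191, 87, 66, 50 and 44 bases before the start, and no match to the other motifs. Tnfsf18 held a TATA box beginning 34 bases before the start. Fas held 1 AP-1 match beginning 211 bases before the start and 2 GC boxes, and Tnf held a TATA box beginning 29 bases before it and 1 GC box. Of 32817 RefSeq promoters of the same length, 35.6% held a GC box, 8.32% a TATA box, 7.81% an AP-1 match, 4.5% the NF-kappaB consensus and 1.79% the cAMP response element. No motif match overlapped another, and none of the 7 windows held the NF-kappaB consensus.

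Ischemia was accompanied by higher values of several members under both labels. In kidneys labelled HDAC2-/-, 5 of the 9 measured members were higher than without ischemia at an adjusted p under 0.05 from limma and 0 were lower, beside 2.94% of all 34472 probe sets called higher and 1.97% called lower. In WT kidneys 3 of 9 were higher and 0 lower, beside 6.55% and 7.17% of all probe sets. Tnfrsf12a, Tnfsf18 and Fas were called under both labels, and Tnfrsf1a and Tnfrsf1b under the HDAC2-/- label alone, a difference in calls that is not itself a difference in response. The median change over the 9 members was 0.56 in kidneys labelled HDAC2-/- and 0.37 in WT kidneys, beside -0.01 and -0.02 over all probe sets in the same comparisons. All ischemic arrays lay above all unischemic arrays in 5 members under the HDAC2-/- label and in 4 in WT, beside 9.91% and 13% of all probe sets. In bulk tissue, more cells of a type and more RNA per cell cannot be told apart, nor can fewer cells and less RNA per cell. The limma p values set a difference against a spread between kidneys that is pooled over the 4 groups and moderated over all probe sets.

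**Figure D1:**
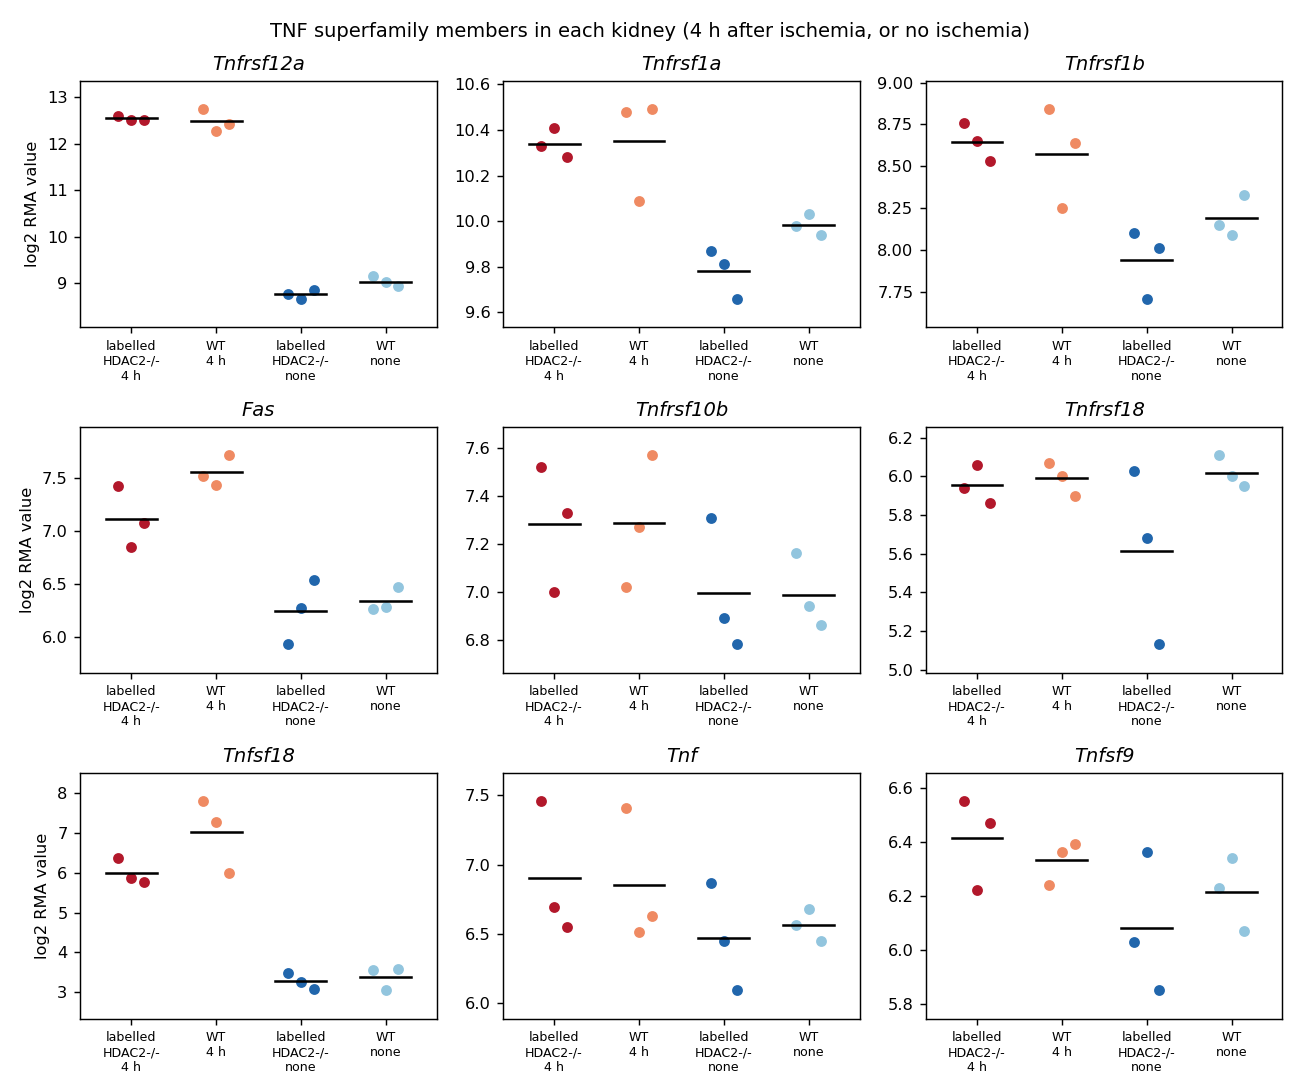
Log2 RMA values of the 9 measured members (vertical axes) in each of 12 kidneys, in 4 columns of 3 points by label and ischemia, with lines at the group means. Vertical axes differ between genes. The 6 ischemic points of Tnfrsf12a lie between 12.27 and 12.74, above all unischemic points, while those of Tnf overlap with the unischemic points.

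Among the receptors, Tnfrsf12a changed most. It read 12.60, 12.52 and 12.52 in ischemic kidneys labelled HDAC2-/-, against 8.77, 8.66 and 8.84 in unischemic kidneys with that label. In WT it read 12.74, 12.27 and 12.43 in ischemic kidneys, against 9.14, 9.01 and 8.93 in unischemic kidneys. The 6 ischemic kidneys formed a group of their own, more than 3 log2 units above the 6 unischemic ones. The change was 3.79 on the log2 scale under the HDAC2-/- label (adjusted p = 6.39e-09 from limma, SE 0.14), 13.8-fold with a 95% confidence interval from 11.2 to 17.0. In WT it was 3.45 (SE 0.14, adjusted p = 2.28e-08 from limma), 11.0-fold with an interval from 8.9 to 13.5. By size of rise, the probe set ranked 6 of 34472 under the HDAC2-/- label and 13 in WT. Both calls held in every alternative run, leaving out each array included.

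Fas encodes a death receptor that recruits FADD. It read 7.42, 6.85 and 7.07 in ischemic kidneys labelled HDAC2-/-, against 5.93, 6.27 and 6.54 in unischemic ones. In WT it read 7.51, 7.43 and 7.71 in ischemic kidneys, against 6.26, 6.28 and 6.47 in unischemic ones. Ischemic and unischemic arrays did not overlap under either label. Fas rose by 0.87 under the HDAC2-/- label (1.82-fold, adjusted p = 0.0123 from limma, SE 0.18) and by 1.21 in WT (2.32-fold, SE 0.18, adjusted p = 0.000707 from limma). The WT call held in every alternative run. The other call was lost without unischemic replicate 1 of that label, with a change of 0.71 (adjusted p = 0.0706 from limma), and without its ischemic replicate 1, also with 0.71 (adjusted p = 0.0516 from limma). It was lost as well when only the groups compared were fitted (0.0518) and when the empirical Bayes step was left out (0.0556), and at 1.82-fold it did not pass an alternative rule of at least 2-fold with an unadjusted p under 0.05.

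Tnfrsf1a and Tnfrsf1b encode the receptors for TNF, of which Tnfrsf1a carries a death domain and is found on most cells, whereas Tnfrsf1b is best known from leukocytes and endothelium. Tnfrsf1a read 10.33, 10.41 and 10.28 in ischemic kidneys labelled HDAC2-/-, against 9.87, 9.81 and 9.66 in unischemic ones, and 10.48, 10.09 and 10.49 in ischemic WT kidneys, against 9.98, 10.03 and 9.94 in unischemic ones. Ischemic arrays were higher throughout, although ischemic WT replicate 2 lay close to the unischemic WT arrays. The change was 0.56 under the HDAC2-/- label (SE 0.14, adjusted p = 0.0307 from limma) and 0.37 in WT (95% confidence interval from 0.08 to 0.66, adjusted p = 0.0955 from limma). Leaving out any 1 of the 6 arrays labelled HDAC2-/- ended that call, at adjusted p = 0.0708, 0.0979 and 0.0593 from limma for unischemic replicates 1, 2 and 3 and 0.0697, 0.108 and 0.0821 for ischemic replicates 1, 2 and 3. Fitting only the groups compared ended it too (0.0536). Without ischemic WT replicate 2 the WT change was 0.50 and passed (adjusted p = 0.026 from limma).

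Tnfrsf1b read 8.76, 8.65 and 8.53 in ischemic kidneys labelled HDAC2-/-, against 8.10, 7.71 and 8.01 in unischemic ones, with no overlap. In ischemic WT kidneys it read 8.84, 8.25 and 8.64, against 8.15, 8.09 and 8.33 in unischemic ones, and the arrays overlapped. The change was 0.71 under the HDAC2-/- label (1.63-fold, SE 0.17, adjusted p = 0.0247 from limma) and 0.39 in WT (95% confidence interval from 0.03 to 0.74, adjusted p = 0.156 from limma). The call was lost without unischemic replicate 2 of that label (adjusted p = 0.133 from limma) and without its ischemic replicates 1, 2 and 3 (0.0795, 0.0723 and 0.0576), and also with no empirical Bayes step (0.0688). As with Tnfrsf1a, the WT change passed without ischemic WT replicate 2, at 0.55 (adjusted p = 0.0444 from limma). Of 5 neutrophil markers, 2 were called higher under each label, beside 2.94% of all probe sets under the HDAC2-/- label and 6.55% in WT. Their summed linear signal was 238 to 410 in ischemic kidneys labelled HDAC2-/- and 220 to 563 in ischemic WT kidneys, against 172 to 192 and 170 to 201 in unischemic kidneys of those labels. Of 6 macrophage and monocyte markers, 2 were called higher under each label. None of 6 T cell or 3 natural killer cell markers was called. Of 2 B cell markers, 1 was called lower in WT, beside 7.17% of all probe sets. The part of these cells in the Tnfrsf1b result was not tested.

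The 2 remaining receptors did not pass. Tnfrsf10b, the mouse death receptor for TRAIL, read 7.52, 7.00 and 7.33 in ischemic kidneys labelled HDAC2-/-, against 7.31, 6.89 and 6.78 in unischemic ones, and 7.02, 7.27 and 7.57 in ischemic WT kidneys, against 7.16, 6.94 and 6.86 in unischemic ones. Its change was 0.29 under the HDAC2-/- label and 0.30 in WT (adjusted p = 0.508 and 0.376 from limma), and the arrays overlapped under both labels. Tnfrsf18, known as GITR and best known from T cells, read 5.94, 6.06 and 5.86 in ischemic kidneys labelled HDAC2-/-, against 6.03, 5.68 and 5.13 in unischemic ones, and 6.07, 6.0 and 5.90 in ischemic WT kidneys, against 6.11, 6.0 and 5.95 in unischemic ones. Replicate 3 of the unischemic kidneys labelled HDAC2-/- was the lowest of the 12. The change was 0.34 under the HDAC2-/- label and -0.03 in WT (adjusted p = 0.393 and 0.952 from limma). None of the 6 T cell markers was called in either comparison, and their summed linear signal was 275 to 310 and 284 to 333 in ischemic kidneys labelled HDAC2-/- and WT, against 331 to 352 and 305 to 379 in unischemic ones.

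Of the ligands, Tnfsf18 changed most. It encodes GITRL, the ligand of Tnfrsf18, which is known from endothelium and antigen-presenting cells. It read 6.38, 5.88 and 5.77 in ischemic kidneys labelled HDAC2-/-, against 3.49, 3.27 and 3.09 in unischemic ones. In ischemic WT kidneys it read 7.81, 7.29 and 6.0, against 3.55, 3.05 and 3.58 in unischemic ones. The unischemic kidneys were all low, and among the ischemic ones WT replicates 1 and 2 stood above the other 4. The rise was 2.73 under the HDAC2-/- label (6.62-fold, SE 0.34, adjusted p = 0.000409 from limma) and 3.64 in WT (12.5-fold, SE 0.34, adjusted p = 2.72e-05 from limma). By size of rise it ranked 29 of 34472 under the HDAC2-/- label and 8 in WT, and both calls held in every alternative in which it was tested. A filter on a mean log2 value of at least 5 left it out, as its mean over the 12 arrays was 4.93. The files give no detection call, so how far the unischemic values lie above background is not known here. Of 5 endothelial markers, 1 was called higher and 1 lower under the HDAC2-/- label and 2 higher and 1 lower in WT. Over all probe sets, 2.94% were called higher and 1.97% lower under the HDAC2-/- label, and 6.55% and 7.17% in WT. The summed linear signal of the 5 endothelial markers was 4038 to 5185 and 4841 to 5019 in ischemic kidneys labelled HDAC2-/- and WT, against 3451 to 4901 and 3976 to 4789 in unischemic ones. Macrophage and monocyte markers are given with Tnf below. The part of either cell type in the Tnfsf18 result was not tested.

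Tnf, released above all by macrophages, did not pass. It read 7.46, 6.69 and 6.55 in ischemic kidneys labelled HDAC2-/-, against 6.87, 6.45 and 6.09 in unischemic ones, and 7.41, 6.51 and 6.63 in ischemic WT kidneys, against 6.56, 6.68 and 6.45 in unischemic ones. Replicate 1 was the highest array in both ischemic groups, and ischemic and unischemic arrays overlapped under both labels. The change was 0.43 under the HDAC2-/- label (95% confidence interval from -0.15 to 1.01, adjusted p = 0.487 from limma) and 0.29 in WT (from -0.30 to 0.87, adjusted p = 0.595 from limma). Leaving out 1 array moved the change within 0.15 to 0.63 under the HDAC2-/- label and 0.01 to 0.46 in WT. Of 6 macrophage and monocyte markers, Cd68 and Itgam were called higher under both labels, and Adgre1, Csf1r, Ly6c2 and Ccr2 were not called. Over all probe sets, 2.94% were called higher under the HDAC2-/- label and 6.55% in WT. The summed linear signal of the 6 was 1766 to 1844 and 1625 to 2020 in ischemic kidneys labelled HDAC2-/- and WT, against 1295 to 1536 and 1285 to 1740 in unischemic ones, and their part in the Tnf values was not tested.

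Tnfsf9, the ligand known as 4-1BBL, read 6.55, 6.22 and 6.47 in ischemic kidneys labelled HDAC2-/-, against 6.03, 6.36 and 5.85 in unischemic ones, and 6.24, 6.36 and 6.39 in ischemic WT kidneys, against 6.23, 6.34 and 6.07 in unischemic ones. The groups overlapped, and the change was 0.33 under the HDAC2-/- label and 0.12 in WT (adjusted p = 0.288 and 0.724 from limma).

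**Figure D2:**
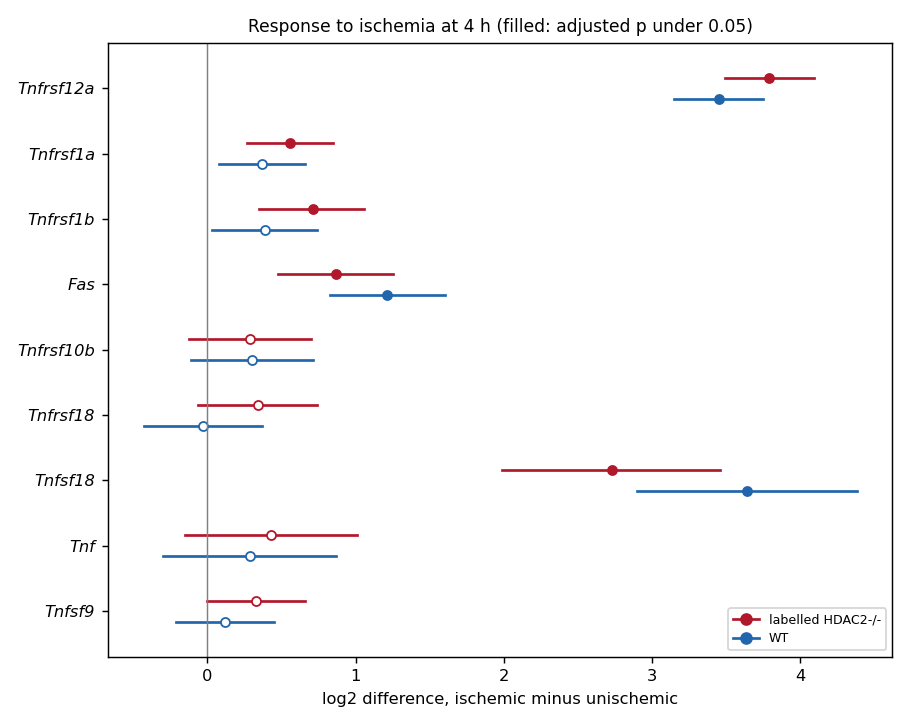
Log2 difference between ischemic and unischemic kidneys (horizontal axis) for each member, red for kidneys labelled HDAC2-/- and blue for WT, 3 mice per group. Bars are unadjusted 95% confidence intervals from limma and filled points have an adjusted p under 0.05. Tnfrsf12a (3.79 under the HDAC2-/- label, 3.45 in WT) and Tnfsf18 (2.73 under that label, 3.64 in WT) stand to the right of the other members.

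The study asked how HDAC2 deletion affects kidney injury after ischemia. The comparison between labels at 4 h is given first, and it also holds any difference present without ischemia. The difference of the responses, which sets that aside, follows the comparison without ischemia. None of the 9 members was called between ischemic kidneys labelled HDAC2-/- and ischemic WT kidneys, beside 0% of all probe sets. At an unadjusted p under 0.05 there were 2, Tnfsf18 and Fas, beside 6.59% of all probe sets. Tnfsf18 was lower by 1.02 under the HDAC2-/- label, at -1.02 on the log2 scale (0.492-fold, 95% confidence interval from -1.76 to -0.29, adjusted p = 0.713 from limma). Its arrays overlapped (two-sided exact permutation test over these 6 arrays, p = 0.2), as ischemic WT replicate 3 lay among those labelled HDAC2-/-. Among fits that each left out 1 array, the difference ran from -1.54, without ischemic WT replicate 3, to -0.64, without ischemic WT replicate 1. Fas lay at -0.44 (0.739-fold, 95% confidence interval from -0.82 to -0.05, adjusted p = 0.738 from limma), and its 3 arrays labelled HDAC2-/- were all below the 3 WT arrays, beside 4.08% of probe sets that were lower in this way. The two-sided exact permutation p was 0.1, which no comparison of 3 kidneys with 3 can go below. Tnfrsf12a differed by 0.07, with an interval from -0.23 to 0.37 (adjusted p = 0.946 from limma), and the 6 members not named here lay between -0.04 and 0.08.

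Without ischemia, none of the 9 was called between kidneys labelled HDAC2-/- and WT kidneys, beside 0% of all probe sets. Only Tnfrsf18 had an unadjusted p under 0.05 among the members, at -0.41 (adjusted p = 1.0 from limma, arrays overlapping), beside 2.38% of all probe sets. Among fits that each left out 1 array, the Tnfrsf18 difference ran from -0.62 to -0.16. Tnfrsf12a and Tnfrsf1a were lower on all 3 arrays labelled HDAC2-/- than on all 3 WT arrays, as were 3.83% of probe sets. Tnfrsf12a lay at -0.27 (95% confidence interval from -0.57 to 0.03) and Tnfrsf1a at -0.20 (from -0.50 to 0.09), each at adjusted p = 1.0 from limma. The response under the HDAC2-/- label less the WT response was not called for any member, had no unadjusted p under 0.05 among the 9, and passed for 0% of all probe sets, with 4.19% at an unadjusted p under 0.05. It was 0.34 for Tnfrsf12a (95% confidence interval from -0.09 to 0.76), -0.91 for Tnfsf18 (from -1.95 to 0.13), -0.35 for Fas (from -0.89 to 0.20), 0.19 for Tnfrsf1a (from -0.23 to 0.61) and 0.32 for Tnfrsf1b (from -0.18 to 0.82).

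**Figure D3:**
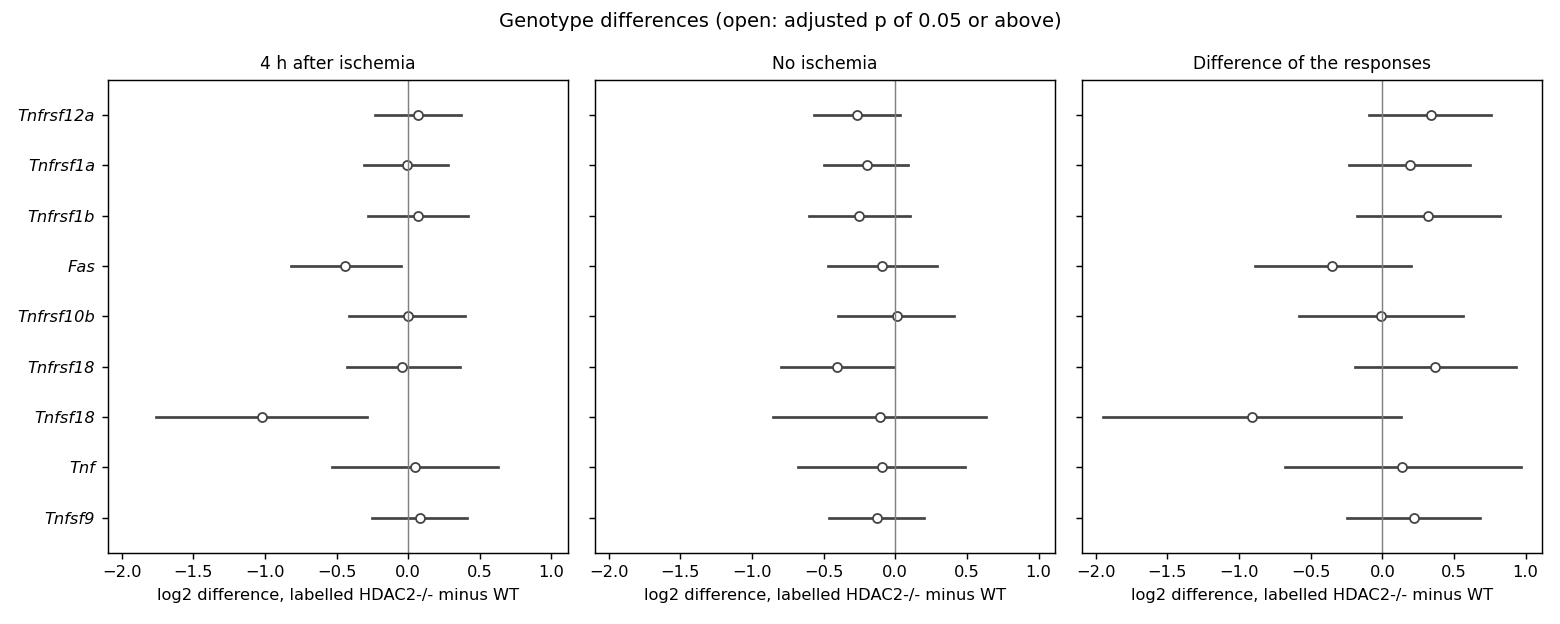
Log2 difference between kidneys labelled HDAC2-/- and WT kidneys (horizontal axes) for the 9 members at 4 h, without ischemia, and as the difference of the responses to ischemia, 3 mice per group. Bars are unadjusted 95% confidence intervals from limma, and all points are open because no adjusted p was under 0.05, although the bars of Tnfsf18 (-1.02) and Fas (-0.44) at 4 h lie left of 0.

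Over the 12 arrays, the genes whose values ran most like Tnfrsf12a were Mcl1, Lgals3, Akap12, Dusp5 and Atf4, with Pearson correlations of 0.995, 0.992, 0.990, 0.989 and 0.989 among 22179 genes. Mcl1 is an inhibitor of apoptosis, Lgals3 a galectin, Dusp5 a MAP kinase phosphatase and Atf4 a transcription factor of the stress response. The arrays share the ischemic contrast, and the correlations are given as a description without a p. Mcl1 rose by 1.30 under the HDAC2-/- label and by 1.07 in WT, while Dusp5 rose by 2.98 under the HDAC2-/- label and by 3.03 in WT. By deviations from the group means, the closest were Wfdc6a at 0.975, Clmp at 0.939, Lrrc2 at 0.924, Gm3878 at 0.922 and Mycl at 0.918, none of them among the first 5. These are the highest of 22179 correlations over 12 arrays. They were not set against what picking the highest would give, so shared regulation is not read from them. Group means ran from 4.63 to 4.75 for Wfdc6a, 4.84 to 5.02 for Lrrc2 and 4.72 to 4.98 for Mycl, near the filter level of 5.

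The wider family moved less than Tnfrsf12a and Tnfsf18. Of 13 other measured ligands, 0 were higher and 1 lower after ischemia under the HDAC2-/- label, and 1 was higher and 2 lower in WT. These are 7.69% of the list under the HDAC2-/- label and 23.1% in WT, beside 4.91% and 13.7% of all probe sets, with medians of -0.06 under the HDAC2-/- label and 0.06 in WT. Tnfsf10, which encodes the death ligand TRAIL, read 6.44, 6.88 and 6.61 in ischemic kidneys labelled HDAC2-/-, against 7.50, 7.46 and 7.69 in unischemic ones, and 6.74, 7.05 and 6.82 in ischemic WT kidneys, against 7.71, 7.81 and 7.90 in unischemic ones. Every ischemic array was below every unischemic one, with changes of -0.91 under the HDAC2-/- label and -0.94 in WT (adjusted p = 0.00247 and 0.00101 from limma). Tnfsf15, a ligand also called TL1A, was at 0.49 under the HDAC2-/- label and 0.88 in WT (adjusted p = 0.308 and 0.0212 from limma), and the WT call was lost without unischemic replicate 1 (0.095) and without ischemic replicates 1 and 2 of WT (0.0515 and 0.0842). Eda, ectodysplasin, was at -0.31 under the HDAC2-/- label and -0.54 in WT (adjusted p = 0.39 and 0.0497 from limma). Its WT call, just inside the threshold, was lost without any 1 of 9 arrays, namely the 6 ischemic ones, WT replicates 1 and 2 and replicate 2 of the unischemic kidneys labelled HDAC2-/- (adjusted p = 0.0558 to 0.199).

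Of 22 other measured receptors, 0 were higher and 1 lower under the HDAC2-/- label, and 1 was higher and 2 lower in WT. These are 4.55% of the list under the HDAC2-/- label and 13.6% in WT, near the 4.91% and 13.7% of all probe sets, with medians of 0.09 under the HDAC2-/- label and -0.05 in WT. Ngfr, the p75 neurotrophin receptor, read 6.37, 6.44 and 5.94 in ischemic kidneys labelled HDAC2-/-, against 7.60, 7.21 and 7.14 in unischemic ones, and 6.58, 6.42 and 5.90 in ischemic WT kidneys, against 7.47, 7.49 and 7.06 in unischemic ones. Ischemic arrays were lower throughout, with changes of -1.07 under the HDAC2-/- label and -1.04 in WT (adjusted p = 0.00821 and 0.0045 from limma). The call under the HDAC2-/- label was lost without its unischemic replicate 1 (0.0508) or ischemic replicate 3 (0.0513). Tnfrsf14, a receptor for LIGHT, was at -0.23 under the HDAC2-/- label and -0.58 in WT (adjusted p = 0.452 and 0.011 from limma). Tnfrsf23, a mouse receptor that binds TRAIL without a death domain, was at 0.45 under the HDAC2-/- label and 0.64 in WT (adjusted p = 0.184 and 0.0235 from limma), and its WT call was lost without unischemic WT replicates 2 and 3 (0.0694 and 0.0919) and without ischemic WT replicates 1 and 2 (0.0864 and 0.0633).

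**Figure D4:**
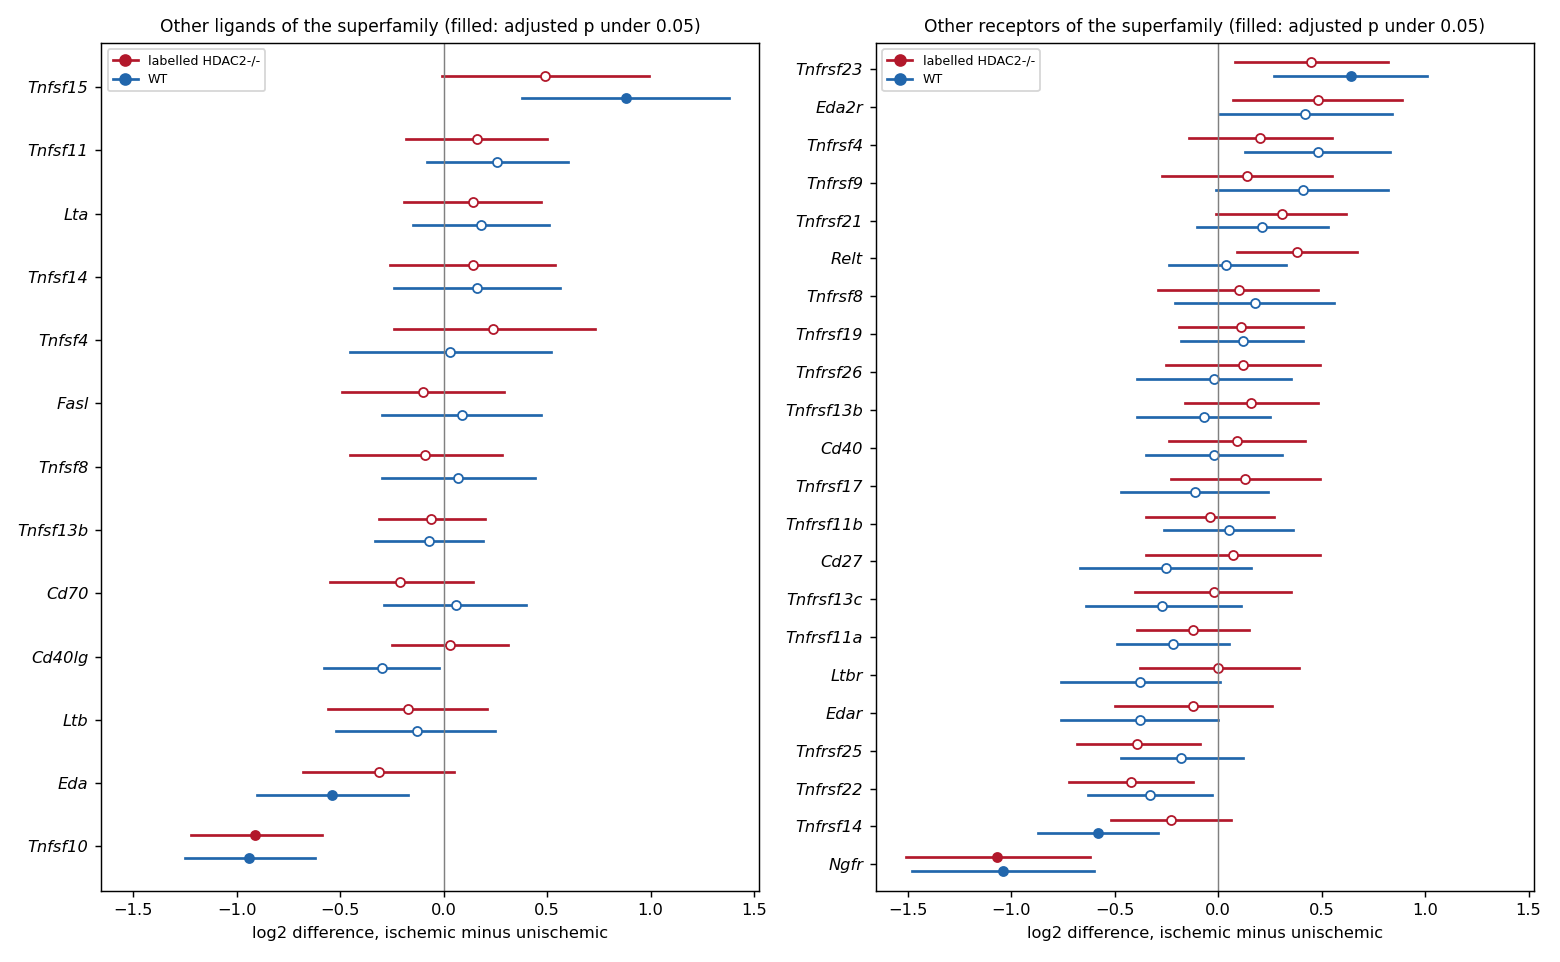
Log2 difference between ischemic and unischemic kidneys (horizontal axes) for the other TNF superfamily ligands and receptors, red for kidneys labelled HDAC2-/- and blue for WT, 3 mice per group. Bars are unadjusted 95% confidence intervals from limma and filled points have an adjusted p under 0.05. Tnfsf10 (-0.91 under the HDAC2-/- label, -0.94 in WT) and Ngfr (-1.07 under that label, -1.04 in WT) are filled for both labels.

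Downstream of the receptors, 32 of 36 adaptors and proximal signalling genes were measured. Under the HDAC2-/- label 5 were higher and 0 lower after ischemia (15.6% of the list, beside 4.91% of all probe sets called in either direction), and in WT 14 were higher and 4 lower (56.2%, beside 13.7%). The median change was 0.05 under the HDAC2-/- label and 0.28 in WT. The 5 called under the HDAC2-/- label, Birc2, Birc3, Cflar, Cyld and Map3k5, were all called higher in WT as well. Birc3, an inhibitor of apoptosis that ubiquitinates signalling proteins at TNF receptors, read 8.36, 7.75 and 7.79 in ischemic kidneys labelled HDAC2-/-, against 6.67, 6.66 and 6.78 in unischemic ones, and 7.96, 8.35 and 7.93 in ischemic WT kidneys, against 6.87, 6.71 and 7.09 in unischemic ones. No ischemic array overlapped with an unischemic one, and Birc3 rose by 1.26 under the HDAC2-/- label and by 1.19 in WT (adjusted p = 0.00104 and 0.000795 from limma). Birc2, its close relative, rose by 1.15 under the HDAC2-/- label and by 1.13 in WT (adjusted p = 0.00247 and 0.00141 from limma). Cflar, which encodes the caspase-inhibiting protein c-FLIP, rose by 0.84 under the HDAC2-/- label and by 1.03 in WT (adjusted p = 0.0066 and 0.000827 from limma).

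Cyld, a deubiquitinase, rose by 0.68 under the HDAC2-/- label and by 0.77 in WT (adjusted p = 0.0339 and 0.00762 from limma). Its call under the HDAC2-/- label was lost without unischemic replicate 1 or 2 of that label (0.14 and 0.175) or its ischemic replicate 1, 2 or 3 (0.0743, 0.0706 and 0.137), and also without unischemic WT replicate 2 (0.0521). Map3k5, the kinase ASK1, rose by 0.95 under the HDAC2-/- label and by 1.32 in WT (adjusted p = 0.026 and 0.00171 from limma), and its call under the HDAC2-/- label was lost without unischemic replicate 1 or 2 of that label (0.0586 and 0.112) or its ischemic replicate 1 or 3 (0.0597 and 0.129). Tnfaip3, which encodes the NF-kappaB inhibitor A20, read 7.92, 6.72 and 7.26 in ischemic kidneys labelled HDAC2-/-, against 6.58, 6.60 and 6.26 in unischemic ones, and 7.70, 8.04 and 7.47 in ischemic WT kidneys, against 6.62, 6.57 and 6.35 in unischemic ones. Ischemic replicate 2 labelled HDAC2-/- lay closest to the unischemic arrays. The change of Tnfaip3 was 0.82 under the HDAC2-/- label and 1.22 in WT (adjusted p = 0.0761 and 0.00467 from limma), and without that array the first was 1.11 and passed (0.0145). Mlkl, the effector of necroptosis, was at 0.76 under the HDAC2-/- label and 1.21 in WT (adjusted p = 0.0531 and 0.00185 from limma), and the first passed without ischemic replicate 2 labelled HDAC2-/- (0.0412) or ischemic WT replicate 2 or 3 (0.0367 and 0.0491).

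Between the labels at 4 h, 24 of the 32 signalling genes were below 0 and 8 above, with a median of -0.15 beside 0.01 over all probe sets. None was called, and 6 had an unadjusted p under 0.05, beside 6.59% of all probe sets. Ischemic WT replicate 2 stood well above the other ischemic WT arrays in several of the 32. It read 7.34 for Ikbkg, against 6.34 and 6.35, and 8.22 for Tab1, against 7.14 and 7.20. In others it did not, as for Tradd at 6.64, against 6.88 and 6.74. The median between labels was not recomputed without that array. The difference of the responses was not called for any of the 32, with 1 unadjusted p under 0.05 beside 4.19% of all probe sets, so the larger count of calls in WT is not shown to be a larger response.

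**Figure D5:**
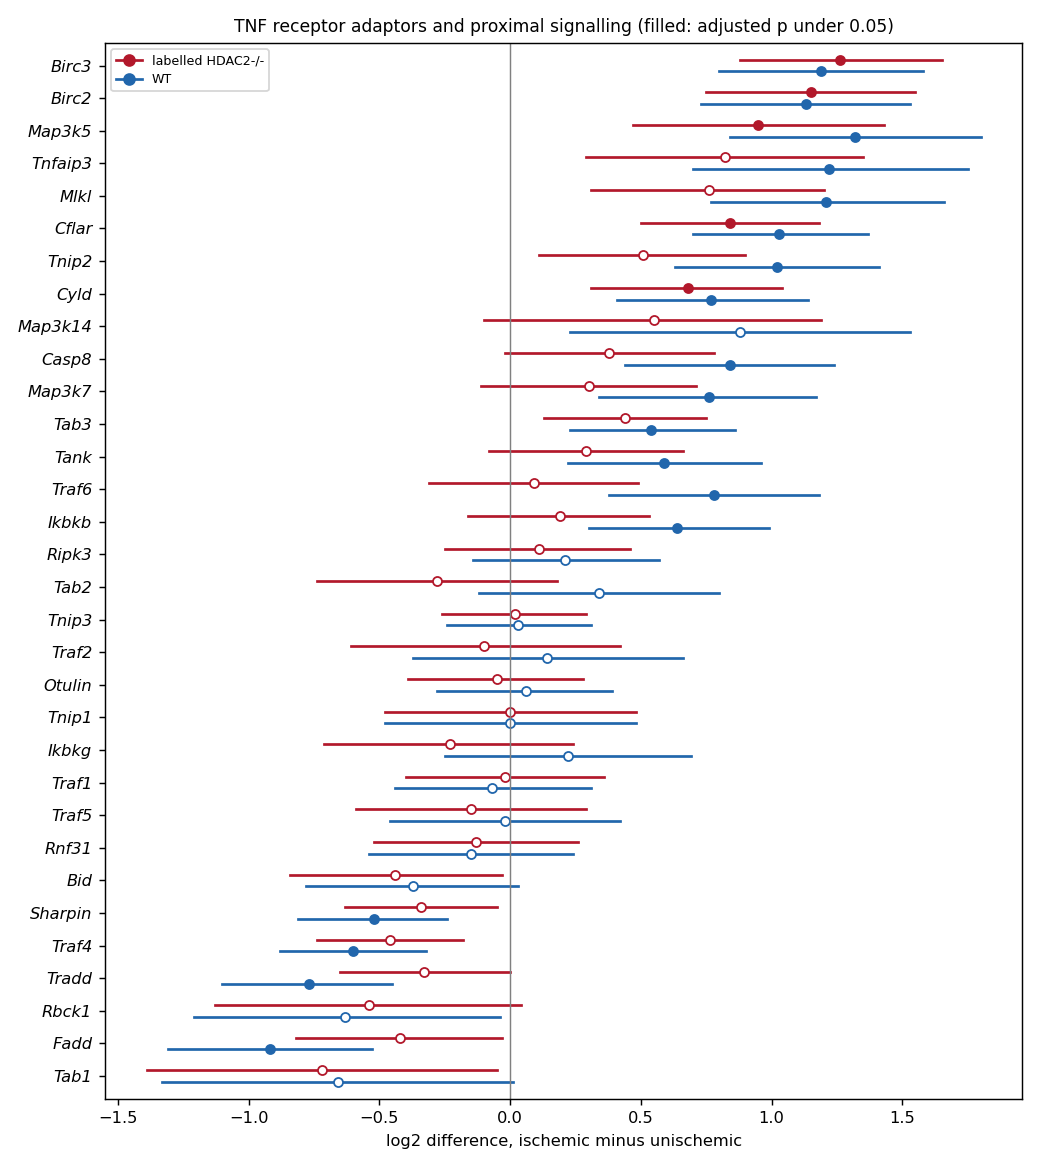
Log2 difference between ischemic and unischemic kidneys (horizontal axis) for 32 TNF receptor adaptors and proximal signalling genes, red for kidneys labelled HDAC2-/- and blue for WT, 3 mice per group. Bars are unadjusted 95% confidence intervals from limma and filled points have an adjusted p under 0.05. Birc3 (1.26 under the HDAC2-/- label, 1.19 in WT) and Birc2 (1.15 under that label, 1.13 in WT) lie near the top, and filled points below 0 are blue only.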

How the data were processed

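RNA of 12 kidneys was hybridized to GeneChip Mouse Gene 2.0 ST arrays. The authors applied RMA with Transcriptome Analysis Console 4.0 and deposited log2 signals with 2 decimals for 34472 probe sets. The RMA settings are not given in the sources used here. The platform table paired 23521 probe sets with 1 symbol, 1820 with several and 9131 with none. Of these values, 1 mean per group was fitted to all 12 arrays with limma 3.58.1 in R 4.3.3 (lmFit and eBayes, 8 residual and 5.94 prior degrees of freedom), with Benjamini-Hochberg adjustment over all probe sets and a call at an adjusted p under 0.05. The median SE of a log2 difference was 0.17, and the number of arrays limits the precision. Single values were compared by two-sided exact permutation tests. The fit was tested on simulated data. Summed marker signals are sums of 2 raised to the log2 values.

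The members and gene lists were chosen with earlier results of these data known. All members were described, and of each other list the called genes with the largest changes per ischemia comparison were named, up to 5 (3 for the processing and mRNA decay lists), with the 5 genes most like Tnfrsf12a by each of 2 correlations. One probe set of 1 symbol stood for a gene. Each result was recomputed with median-centred or quantile-normalized arrays, with probe sets limited to 1 symbol or to a mean of 5 or more on the log2 scale, with only the groups compared, with trended and robust moderation or none, with array weights, with a block for the replicate number, without each array in turn, and at other thresholds. Python 3.11.15 and matplotlib 3.10.9 drew the figures. Protein sequences were not used here.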

Additional observations from a re-analysis of the deposited data

How the results depend on the processing

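With 3 mice per group, changes of the size of the median SE cannot be resolved, nor can many larger ones, and a gene not called may still differ. Over alternatives other than leaving out an array, 380 of 391 values of the members kept their direction and their side of the threshold, 4 were no longer called, 2 became called and 5 reversed. Of 306 values of other named genes, 280 were kept, 20 lost and 6 gained a call. The 5 reversals came with array weights and were small, in the comparison of labels at 4 h -0.02 for Tnfrsf12a, -0.25 for Tnf and -0.09 for Tnfrsf1b, without ischemia 0.05 for Tnfsf18, and for the difference of responses -0.23 for Tnf. The cause was not tested.

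The 5 members called under the HDAC2-/- label were 3 with only the groups compared, 3 without empirical Bayes and 2 at an unadjusted p under 0.05 with 2-fold. The 3 called in WT were 5 with array weights. At 4 h the 0 between labels became 1 at the 2-fold rule, Tnfsf18 at -1.02 (0.492-fold). The share of all probe sets that pass this rule between labels is not given here, so that count has no background beside it. Under the HDAC2-/- label, without empirical Bayes, 844 probe sets, 3 signalling genes and 0 other receptors were called, against 1691, 5 and 1. With array weights these were 6356, 16 and 4, and at the 2-fold rule 617 probe sets, 2 signalling genes and 0 other ligands. In WT, the 2-fold rule gave 1177 probe sets, 7 signalling genes, 0 other ligands and 1 other receptor, against 4730, 18, 3 and 3, and without empirical Bayes 1 other ligand was called.

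Leaving out 1 array, members called ranged from 2 to 5 under the HDAC2-/- label and 3 to 5 in WT, and stayed at 0 between labels in both states and for the difference of responses. Under the HDAC2-/- label the other ligands gave 1 and the other receptors 0 to 1. Signalling genes gave 3 to 9 and all probe sets 744 to 2848, both highest without unischemic replicate 3 of that label. In WT the same counts, in that order, ranged from 1 to 3, 2 to 4, 12 to 20 and 2675 to 5418. Small differences changed sign. Between labels at 4 h the ranges were -0.04 to 0.20 for Tnfrsf12a, -0.09 to 0.01 for Tnfrsf18, -0.23 to 0.33 for Tnf, -0.14 to 0.06 for Tnfrsf1a, -0.09 to 0.20 for Tnfrsf1b and -0.14 to 0.14 for Tnfrsf10b. Without ischemia they were -0.29 to 0.10 for Tnf, -0.15 to 0.11 for Tnfrsf10b and -0.24 to 0.07 for Fas. The difference of responses was -0.14 to 0.42 for Tnf and -0.14 to 0.15 for Tnfrsf10b, and the WT change of Tnfrsf18 was -0.07 to 0.02.

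Replicate numbers 1 to 3 recur in the 4 groups, but only 8 of 18 same-numbered pairs had deviations correlated above 0.1 (range -0.373 to 0.444), so the numbers were not taken as pairs. Between labels, replicates 1 to 3 gave 0.286, 0.0339 and 0.444 without ischemia and -0.28, -0.373 and -0.0189 at 4 h. Between ischemic and unischemic kidneys they gave 0.295, -0.139 and 0.173 under the HDAC2-/- label and -0.0918, -0.0871 and 0.261 in WT. With the replicate number as a block, 5 members were called under the HDAC2-/- label and 3 in WT, and 0 between labels at 4 h, without ischemia or for the difference of responses. That block is shared by all 4 groups, so it does not test a pairing of ischemic with unischemic kidneys within each label. Over all probe sets the block gave 1754 under the HDAC2-/- label and 4906 in WT, and for signalling genes 5 and 20.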

Other observations

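Of 8 genes for proteins that bind Tnf mRNA or act in its decay, 2 were higher after ischemia under the HDAC2-/- label and 3 in WT, beside 2.94% and 6.55% of all probe sets called higher, and 0 were lower under either. Zfp36, which encodes the mRNA-decay factor tristetraprolin, read 12.77, 12.39 and 12.44 in ischemic kidneys labelled HDAC2-/-, against 11.48, 11.36 and 11.22 in unischemic ones, and 12.83, 12.04 and 12.66 in ischemic WT kidneys, against 11.06, 11.54 and 12.10 in unischemic ones. The WT arrays overlapped. Zfp36 changed by 1.18 under the HDAC2-/- label and by 0.94 in WT (adjusted p = 0.0125 and 0.0198 from limma). The first call was lost without ischemic replicate 1 (0.0529) or unischemic replicate 2 (0.0515) of its label, and the WT call without unischemic WT replicates 1 and 2 (0.0878 and 0.0685) and without ischemic WT replicates 1 and 3 (0.0861 and 0.0597). Zfp36l1, a relative of tristetraprolin, changed by 0.70 under the HDAC2-/- label and by 0.57 in WT (adjusted p = 0.0225 and 0.0315 from limma). Each call was lost without any of 4 arrays, with adjusted p = 0.0764 to 0.0987 under the HDAC2-/- label (unischemic and ischemic replicate 1, unischemic replicate 2 and ischemic replicate 3) and 0.0795 to 0.132 in WT (WT and ischemic WT replicate 1, WT replicate 2 and ischemic WT replicate 3). Rc3h1, which encodes roquin, was at 0.46 under the HDAC2-/- label and 1.07 in WT (adjusted p = 0.377 and 0.00973 from limma). It read 9.11, 10.15 and 8.94 in ischemic WT kidneys, against 8.46, 8.24 and 8.28 in unischemic ones, with ischemic replicate 2 far above the others. Leaving out 1 array moved the WT change within 0.70 to 1.30 and kept its call, which was lost with no empirical Bayes step (0.0555).

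Of 6 genes for shedding and processing of membrane ligands, 0 were called higher under the HDAC2-/- label and 1 in WT, beside the same 2.94% and 6.55%, and 0 were called lower. That gene was Rhbdf2, which encodes a partner of the protease that releases TNF, at 0.68 under the HDAC2-/- label and 0.81 in WT (adjusted p = 0.114 and 0.0275 from limma). Its WT call was lost without WT replicate 1, 2 or 3 (0.0778, 0.0606 and 0.0793) or ischemic WT replicate 2 (0.105).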
